A study of Mus musculus with 18 samples.

Results

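The ionotropic glutamate receptor subunits examined were 10 genes, chosen by gene symbol from the 23038 symbols of the count table: the AMPA receptor genes *Gria1*, *Gria2*, *Gria3* and *Gria4*, the NMDA receptor genes *Grin1*, *Grin2a*, *Grin2b* and *Grin3a*, and the kainate receptor genes *Grik2* and *Grik5*. RNA came from the cortex of 12 mice at embryonic day 18.5 on a CD1 strain background, 3 per group, where the 4 groups were *Nova2-/-*, wild-type littermates of these, *Nova1-/-*, and wild-type littermates of those. The *Nova2* null allele carries an IRES-Cre cassette in place of the exon with the start codon, and neither knockout is confined to a cell type. A table of alternative splicing events added 1 value per event for *Nova2-/-* cortex, for *Nova1-/-* cortex, and for the pooled midbrain and hindbrain of *Nova1-/-* mice, each against wild-type mice. Of the 10 genes, 3 (*Gria4*, *Grin1* and *Grik2*) had events in that table, 8 in all, beside 3.22% of the 15691 genes tested for abundance in the *Nova2* litters. The 10 genes were chosen with earlier results of these data known, so these shares are a description and not a test. In the mm9 genome (GENCODE M1) the genes lie as follows, on the minus strand except *Gria1* and *Gria3*, which are on the plus strand. The AMPA receptor genes are *Gria1* at chr11:56824889-57143746, *Gria2* at chr3:80488858-80606713, *Gria3* at chrX:38754031-39031778 and *Gria4* at chr9:4417899-4796234. The NMDA receptor genes are *Grin1* at chr2:25146701-25174707, *Grin2a* at chr16:9577803-9995014, *Grin2b* at chr6:135679844-136123529 and *Grin3a* at chr4:49674483-49858616, and the kainate receptor genes are *Grik2* at chr10:48819266-49508572 and *Grik5* at chr7:25794872-25857388.

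Ionotropic glutamate receptors are ion channels built from 4 subunits that open when glutamate binds, and they carry most fast excitatory transmission in the brain. AMPA receptors carry the fast current, NMDA receptors need an obligatory subunit encoded by *Grin1* and admit calcium, and kainate receptors act on both sides of the synapse. Several of these genes are spliced in ways that alter the ligand-binding region or the cytoplasmic tail. NOVA1 and NOVA2 are neuronal RNA-binding proteins that recognise YCAY motifs (Y is C or T in DNA letters) in pre-mRNA and raise or lower the inclusion of nearby exons depending on where they bind.

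Total counts ranged from 16518172 to 31362018 per mouse. Levels are given in CPM, counts scaled to a common library size with edgeR's TMM method across the 12 mice. *Nova1* was at 0.0340 to 0.211 CPM in *Nova1-/-* cortex against 41.4 to 75.9 CPM in wild-type littermates, and *Nova2* was at 17.0 to 21.6 CPM in *Nova2-/-* cortex against 31.6 to 40.9 CPM in wild-type littermates, so *Nova2* transcripts remained countable in the mice labelled *Nova2-/-*. By Western blot the study found NOVA2 protein absent from the cortex of newborn *Nova2-/-* mice. Wild-type replicate 3 of the *Nova2* litters stood apart from its group, with a summed level of 14 meningeal marker genes of 615 CPM against 244 and 319 CPM in the other wild-type mice of these litters, and wild-type replicate 2 had the lowest total and counts for 21791 genes against 18397 to 19396 in the other 11 mice. Values that are not whole numbers made up 7.48% to 11.7% of a mouse's counts in the *Nova2* litters and 18.6% to 20.02% in the *Nova1* litters. The cortical label was checked against 8 excitatory neuron markers, whose summed level was 945 to 1220 CPM, and 8 midbrain and hindbrain markers, whose summed level was 2.61 to 10.1 CPM.

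The 8 splicing events lay in *Grik2* (5), *Grin1* (2) and *Gria4* (1), all on the minus strand, and the other 7 genes had none in the table. Each event carries ΔI, the inclusion of wild-type less that of knockout on a scale from -1 to 1, so a value below 0 means more inclusion in the knockout. The table lists only events that the study selected for a |ΔI| of at least 0.1 in *Nova2-/-* cortex together with NOVA binding, so ΔI in *Nova2-/-* cortex is given as a description, without a test. ΔI comes without replicates or read counts, and neither its error nor the depth behind it is known. |ΔI| in *Nova2-/-* cortex ranged from 0.266 to 0.785 over the 8 events with a median of 0.367, beside a median of 0.223 over all 1991 events. The 5 *Grik2* values share splice junctions, so the median of the 8 rests mostly on that gene.

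The alternative exons behind these events were read from the mm9 annotation (GENCODE M1), and their coding parts are shown in 5′ to 3′ transcript direction, with each YCAY motif (TCAT or TCAC and, with C as the first letter, CCAT or CCAC) in capitals, because these stretches enter or leave the receptor message. In *Grin1* the cassettes are the N1 exon (chr2:25166863-25166925, 63 nucleotides or 21 codons, internal coding) and the C1 exon (chr2:25149958-25150068, 111 nucleotides or 37 codons, internal coding). In *Gria4* it is the flip exon (chr9:4427030-4427144, 115 nucleotides, internal coding), which lies downstream of its flop counterpart. In *Grik2* there are 2 alternative exons before the last exon. The first (chr10:48824785-48824871, 87 nucleotides) codes for 15 residues before a stop codon, and the second (chr10:48823316-48823454, 139 nucleotides) codes for 39. For both, the remaining nucleotides are untranslated and are not shown.
Grin1 N1 exon: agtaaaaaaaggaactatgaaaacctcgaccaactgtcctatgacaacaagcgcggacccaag
Grin1 C1 exon: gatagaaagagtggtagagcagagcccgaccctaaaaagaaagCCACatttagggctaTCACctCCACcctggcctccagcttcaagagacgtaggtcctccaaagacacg
Gria4 flip exon: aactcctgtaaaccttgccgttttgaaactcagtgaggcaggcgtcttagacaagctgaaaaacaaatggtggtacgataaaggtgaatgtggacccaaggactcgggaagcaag
Grik2 first alternative exon, coding part: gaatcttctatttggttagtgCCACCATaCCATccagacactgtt
Grik2 second alternative exon, coding part: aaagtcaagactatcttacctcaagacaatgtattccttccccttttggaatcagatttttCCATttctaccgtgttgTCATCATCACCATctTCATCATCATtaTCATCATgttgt

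The largest inclusion difference among the receptor genes was in *Grik2*, which encodes a pore-forming kainate receptor subunit. Its second alternative exon was included more in *Nova2-/-* cortex, with a ΔI of -0.785 against skipping between the first alternative exon and the last exon, and 99.5% of the 1991 events had a smaller |ΔI|. The first alternative exon was included less, with a ΔI of 0.414 between the preceding constant exon and the second alternative exon. The event that sets the first exon against the second had a ΔI of 0.646, which is less of the first and more of the second in the knockout where the first is counted as included, as the junction order in the event's name gives it. Over the whole span from the constant exon to the last exon, a cassette event had a ΔI of -0.462 and the event with both exons together had a ΔI of -0.281. By the junctions in its name, that cassette event is the second exon against skipping of both exons. The 5 values share splice junctions and are not independent of each other. The junction from the second exon to the last exon also occurs in transcripts without the first exon. Likewise, the junction from the constant exon to the first exon occurs in transcripts without the second. The values of -0.785 and 0.414 can therefore mix these transcripts, and the reads behind them are not known. In the annotation each of these exons ends the reading frame with a C-terminal end of its own, and transcripts that skip both end in the last exon.

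In *Nova1-/-* mice every *Grik2* event had a smaller |ΔI| than in *Nova2-/-* cortex, the comparison in which the events were selected. In cortex the second exon had a ΔI of -0.0962, the first exon 0.0459 and the event of the first against the second 0.0916. The cassette over the whole span and the event of both exons together had -0.0183 and -0.00435. In midbrain and hindbrain the corresponding values, in the same order, were -0.161, 0.0764, 0.134, -0.0340 and -0.0280. In all 5 events the sign in *Nova1-/-* cortex and in *Nova1-/-* midbrain and hindbrain was the one seen in *Nova2-/-* cortex. The 5 events share splice junctions, so their signs are tied to each other. Of all 1991 events, 872 had the sign of *Nova2-/-* cortex in *Nova1-/-* cortex and 1149 in *Nova1-/-* midbrain and hindbrain.

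*Grin1*, the obligatory NMDA receptor subunit, had its N1 exon, which inserts residues into the extracellular amino-terminal domain, included more in *Nova2-/-* cortex, with a ΔI of -0.320. Its C1 exon, part of the cytoplasmic tail, was included less, with a ΔI of 0.266. The 2 cassettes of this gene thus had opposite signs. For the N1 exon the values in *Nova1-/-* mice were -0.0221 in cortex and -0.128 in midbrain and hindbrain. For the C1 exon they were -0.0147 and -0.0668, both opposite in sign to *Nova2-/-* cortex.

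*Gria4*, an AMPA receptor subunit, had a ΔI of -0.279 in *Nova2-/-* cortex for its flip exon, whose alternation with the flop exon sets part of the ligand-binding region and the speed of desensitization. The event lies between the flop exon and the next constant exon and sets the flip exon against its skipping after flop. The junction from flip to the constant exon also occurs in transcripts with flip and without flop. The value can therefore mix both kinds of flip use, and the reads behind it are not known. In *Nova1-/-* mice ΔI was -0.0488 in cortex and 0.0672 in midbrain and hindbrain. In *Nova1-/-* cortex |ΔI| of the 8 events had a median of 0.0340 and reached 0.0962, and in midbrain and hindbrain the median was 0.0718 and the highest 0.161. Over all 1991 events the corresponding medians were 0.0341 and 0.0378, and no value for *Nova1-/-* carries a replicate error. The plot of inclusion differences gathers these values.

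**Figure D1:**
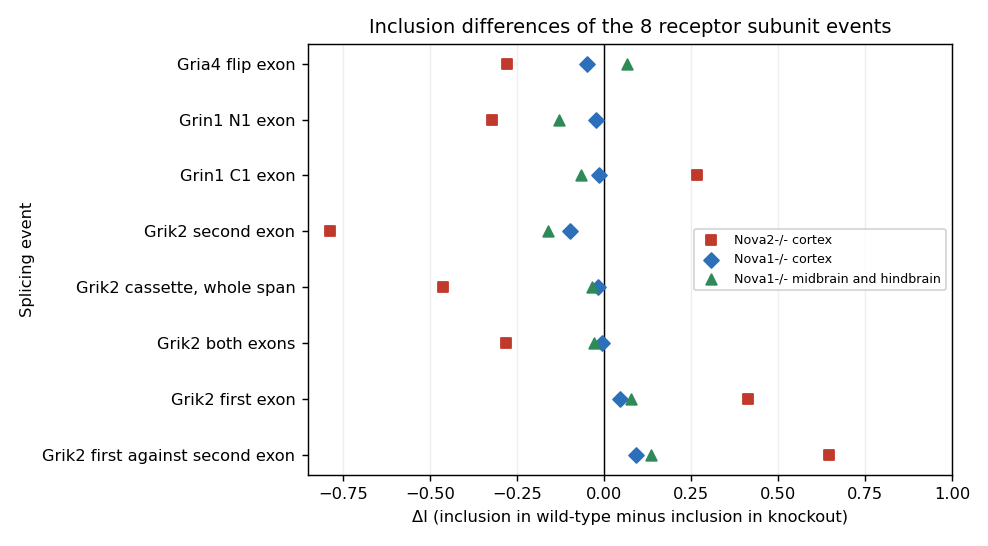
Each row is 1 of the 8 receptor subunit events and the x axis is ΔI, the inclusion in wild-type minus that in knockout. Red squares are Nova2-/- cortex, blue diamonds Nova1-/- cortex and green triangles Nova1-/- midbrain and hindbrain. The red squares run from -0.785 to 0.646 and the other symbols stay between -0.161 and 0.134. No error bars are drawn because each value is single.

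YCAY motifs were counted on the transcript strand in each alternative exon with 200 nucleotides of intron on either side, overlapping motifs included, beside the same count for 323 annotated cassette exons of the event table. Their median was 9 motifs in the window, and all 323 windows held at least 1 motif. TCAT was found in 90.1% of the windows, TCAC in 83.6%, CCAT in 91.0% and CCAC in 79.3%. The study's choice of events used YCAY motifs and NOVA binding, so these counts describe the exons and do not test them.

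The second alternative exon of *Grik2* held 10 motifs within its own length, beside a median of 1 over the 323 exons, of which 3.41% held as many. The 10 are all in its coding part, where TCATCAT repeats follow each other. Its first alternative exon held 3 in the exon, 4 upstream and 5 downstream. The C1 exon of *Grin1* held 3 motifs in the exon, 3 upstream and 10 in the downstream intron, beside a median of 4 downstream, and 4.95% of the 323 exons held as many there. The N1 exon held none in the exon, 4 upstream and 6 downstream, and the flip exon of *Gria4* held none in the exon, 3 upstream and 4 downstream. The 200 downstream nucleotides of the *Grin1* exons (mm9, minus strand, chr2:25149758-25149957 after C1 and chr2:25166663-25166862 after N1) are shown because these exons lie in 1 transcript and had ΔI of opposite sign.
Intron after Grin1 C1 exon: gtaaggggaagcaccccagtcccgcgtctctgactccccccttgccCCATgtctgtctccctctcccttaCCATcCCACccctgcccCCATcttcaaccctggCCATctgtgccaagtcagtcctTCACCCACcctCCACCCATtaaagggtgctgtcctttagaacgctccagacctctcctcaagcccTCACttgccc
Intron after Grin1 N1 exon: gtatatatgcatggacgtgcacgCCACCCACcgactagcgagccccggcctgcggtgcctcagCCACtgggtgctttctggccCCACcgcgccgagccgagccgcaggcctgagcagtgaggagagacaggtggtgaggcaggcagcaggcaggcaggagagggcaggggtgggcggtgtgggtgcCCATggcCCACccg

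**Figure D2:**
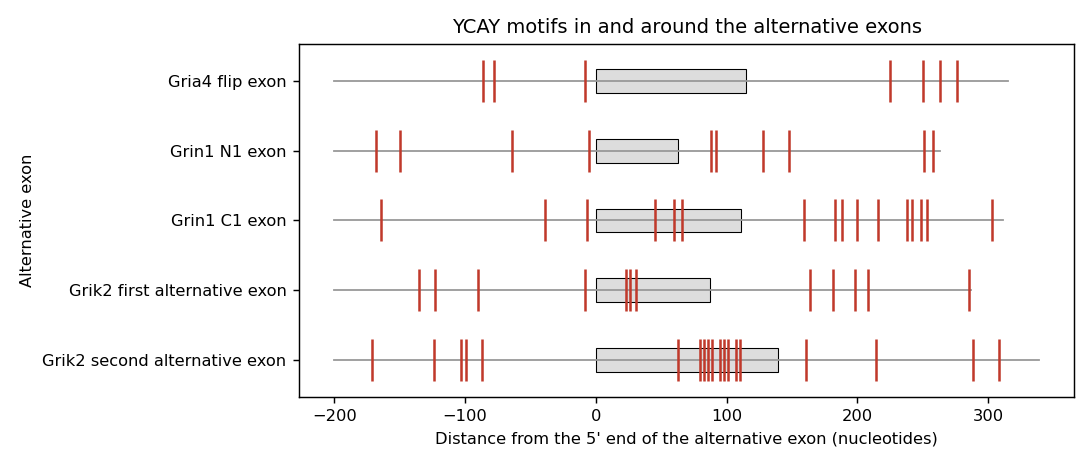
Grey boxes are the 5 alternative exons and lines the 200 nucleotides of intron on each side, with the distance from the 5′ end of the exon in nucleotides on the x axis. Each red tick is 1 YCAY motif. The ticks are densest inside the second alternative exon of Grik2, with 10 in the exon, and in the intron after the Grin1 C1 exon, with 10.

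Transcript abundance of the 10 subunits was then compared, with levels between genes read in CPM per kb of exon (CPM per length, union of exons of protein-coding transcripts). In wild-type cortex of the *Nova2* litters *Gria2* had the highest level, 153.9 to 188 CPM per kb, followed by *Grik2* (53.6 to 67.1) and *Gria1* (49.1 to 60.2), whose ranges overlapped. *Grin2b* came next with 33.0 to 40.7 CPM per kb. *Gria4* (25.3 to 28.1), *Grik5* (20.4 to 27.3) and *Grin1* (17.4 to 28.6) overlapped one another. *Gria3* was at 14.0 to 15.5, *Grin3a* at 6.11 to 6.74 and *Grin2a* at 1.56 to 2.96 CPM per kb. With exon lengths over all annotated transcripts *Grik2* and *Gria1* exchanged places in the mean over the 12 mice, at 43.1 and 53.6 CPM per kb, and the other 8 ranks stayed. Over the 12 mice raw counts ran from 162 to 453 for *Grin2a* and from 21699 to 40106 for *Gria2*.

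**Figure D3:**
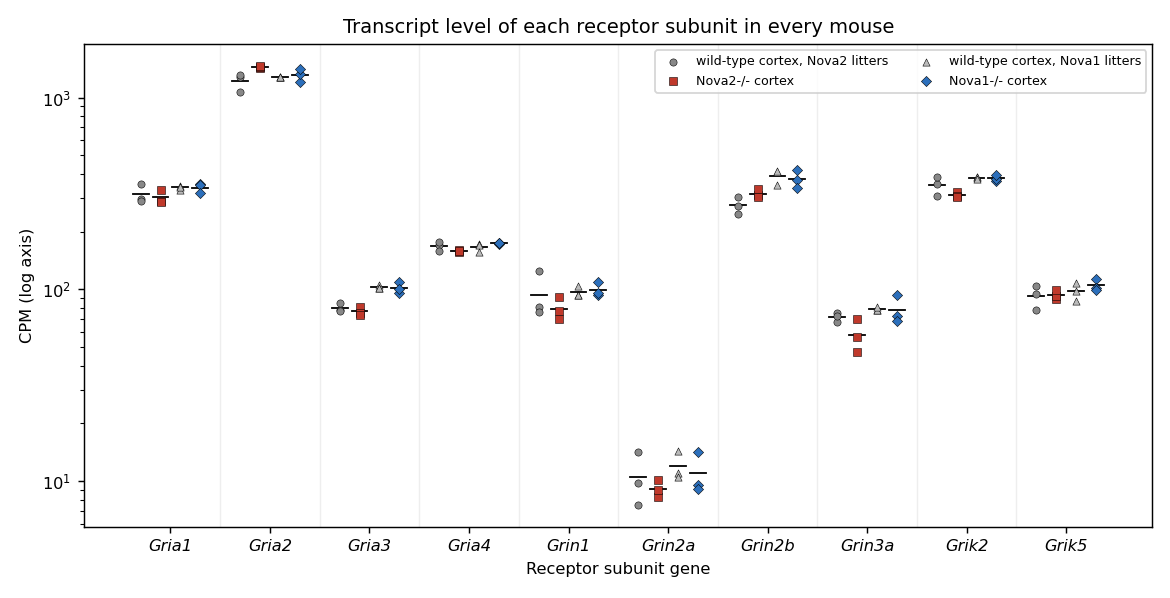
The y axis is the level in CPM on a log axis, each symbol is 1 mouse, and short bars are means of 3 mice in each of 4 cortex groups. Gria2 lies highest, at 1070 to 1464 CPM, and Grin2a lowest, at 7.53 to 14.4 CPM.

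*Nova2-/-* cortex was compared with wild-type littermates in a fit of these 6 mice over 15691 genes. With edgeR's quasi-likelihood test, 0 of the 10 subunits passed the 2 thresholds of the study (an FDR, or adjusted p, below 0.05 with a log2 fold change no smaller than 1 in absolute value), which 41 genes or 0.261% of those tested did. At an FDR below 0.05 alone the count was also 0, beside 1.06% of genes, and it was 0 with DESeq2 and with edgeR's exact test. At an unadjusted p below 0.05 there were 2, *Gria2* and *Grin2b*, beside 19.2% of genes. The median log2 fold change of the 10 was -0.06, beside 0.01 over all genes. In these whole tissue samples fewer cells of a type and less RNA per cell cannot be told apart.

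*Gria2*, the AMPA receptor subunit that limits calcium entry when its message is edited, was at 1286, 1308 and 1070 CPM in the 3 wild-type mice and at 1423, 1453 and 1464 CPM in the 3 *Nova2-/-* mice. All 3 knockouts were above all 3 wild-type mice, as they were in 12.4% of all genes. The log2 fold change was 0.26 (SE 0.0880), and the adjusted p of edgeR's quasi-likelihood test was 0.176. *Grin2b*, the NMDA receptor subunit that prevails before birth, was at 247, 271 and 305 CPM in wild-type and at 312, 302 and 333 CPM in *Nova2-/-* mice. The groups overlapped by 1 mouse on each side, and the log2 fold change was 0.22 (SE 0.0898) with an adjusted p of 0.239 by edgeR.

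*Grin1* was at 80.8, 75.9 and 124.9 CPM in wild-type and at 70.0, 77.3 and 91.0 CPM in *Nova2-/-* mice. *Grin2a*, the NMDA receptor subunit that rises after birth, was at 7.53, 9.76 and 14.3 CPM in wild-type and at 8.32, 9.005 and 10.1 CPM in *Nova2-/-* mice. In both genes the highest mouse was wild-type replicate 3, which held 355 CPM of *Gria1* against 296 and 290 CPM in the other wild-type mice of these litters and the lowest *Gria2* and *Grik2* of its group. Log2 fold changes were -0.23 (SE 0.189) for *Grin1* and -0.20 (SE 0.229) for *Grin2a*, and without that mouse they were 0.04 and 0.11. *Grin3a*, a subunit that lowers the calcium permeability of NMDA receptors, was at 75.03, 68.0 and 73.0 CPM in wild-type and at 56.2, 47.4 and 70.5 CPM in *Nova2-/-* mice, with overlapping groups and a log2 fold change of -0.30 (SE 0.137).

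*Grik2* was at 356, 386 and 308 CPM in wild-type and at 323, 307 and 304 CPM in *Nova2-/-* mice, with overlapping groups and a log2 fold change of -0.16 (SE 0.0856, edgeR adjusted p = 0.362), while it held the largest ΔI of these genes. *Grik5*, a kainate receptor subunit that needs a partner such as that of *Grik2*, had a log2 fold change of 0.03 (SE 0.112). *Gria1*, *Gria3* and *Gria4* had log2 fold changes of -0.04, -0.05 and -0.08, with 95% confidence intervals from -0.27 to 0.18, from -0.22 to 0.13 and from -0.22 to 0.07. Without wild-type replicate 3 of the *Nova2* litters 2 subunits passed an FDR of 0.05 in edgeR's quasi-likelihood test, *Grin2b* (log2 fold change 0.31, adjusted p = 0.0313) and *Grik2* (-0.24, adjusted p = 0.0487), and the genes called at an FDR below 0.05 rose from 166 to 1433. Without any other single mouse of the 6, no subunit passed.

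Summed levels of meningeal and vessel markers were higher in *Nova2-/-* mice in the same comparison. Of 14 meningeal markers 4 passed an FDR of 0.05 and were higher, 12 were higher at an unadjusted p below 0.05 beside 10.1% of all genes, and their summed level was 244 to 615 CPM in wild-type and 937 to 1124 CPM in *Nova2-/-* mice. None of the 14 was at 0 in all 6 mice. The 6 vessel markers summed to 184 to 217 and 259 to 288 CPM. Of these 6, 1 passed an FDR of 0.05 and 4 were higher at an unadjusted p below 0.05. The 1 was *Kdr*, with a mean of 52.2 CPM in wild-type and 88.7 CPM in *Nova2-/-* mice. *Cldn5* had a log2 fold change of 0.07 (SE 0.151), so the vessel sum need not reflect each gene of the list. The 11 neuronal markers tested summed to 5127 to 5530 and 4654 to 4993 CPM, with the largest levels in *Tubb3* and *Dcx*. Of these 11, 0 passed an FDR of 0.05. At an unadjusted p below 0.05, 1 was higher and 1 lower, beside 10.1% and 9.06% of all genes. The 8 cortical excitatory neuron markers overlapped, at 1076 to 1220 CPM in wild-type and 1096 to 1200 CPM in *Nova2-/-* mice. The part of these differences in the subunits' values was not tested.

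*Nova1-/-* cortex was compared with its wild-type littermates over 15901 genes. None of the 10 subunits passed both thresholds or an FDR of 0.05 in edgeR's quasi-likelihood test, DESeq2 or edgeR's exact test, and 2 genes of all tested, 0.0126%, passed both. At an unadjusted p below 0.05 the count was 0, beside 7.44% of genes. Log2 fold changes ran from -0.13 for *Grin2a* to 0.11 for *Grik5*, and the lowest adjusted p was 0.821. *Gria4* was at 171.5, 170.8 and 156 CPM in wild-type and at 171.5, 176 and 174 CPM in *Nova1-/-* mice. The lowest knockout and the highest wild-type mouse differed by under 0.1 CPM, and groups lay apart in this direction in 6.70% of all genes. *Gria2* was at 1281, 1276 and 1277 CPM in wild-type and at 1209, 1331 and 1409 CPM in *Nova1-/-* mice, which overlapped. The 14 meningeal markers summed to 846 to 1062 CPM in wild-type and 732 to 862 CPM in *Nova1-/-* mice.

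The 2 changes were set against each other in a fit of all 12 mice over 16210 genes. For 0 of the 10 subunits did the change in *Nova2-/-* differ from that in *Nova1-/-* cortex at an FDR below 0.05 by edgeR's quasi-likelihood test or by DESeq2, beside 1.83% of genes, none passed both thresholds, beside 0.697%, and 0 reached an unadjusted p below 0.05, beside 18.2%. The lowest adjusted p was 0.313, for *Grin2b*, with a difference of 0.26 (SE 0.133) on the log2 scale and a 95% confidence interval from -0.02 to 0.55. For *Gria2* the difference was 0.20, with an interval from -0.03 to 0.44.

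**Figure D4:**
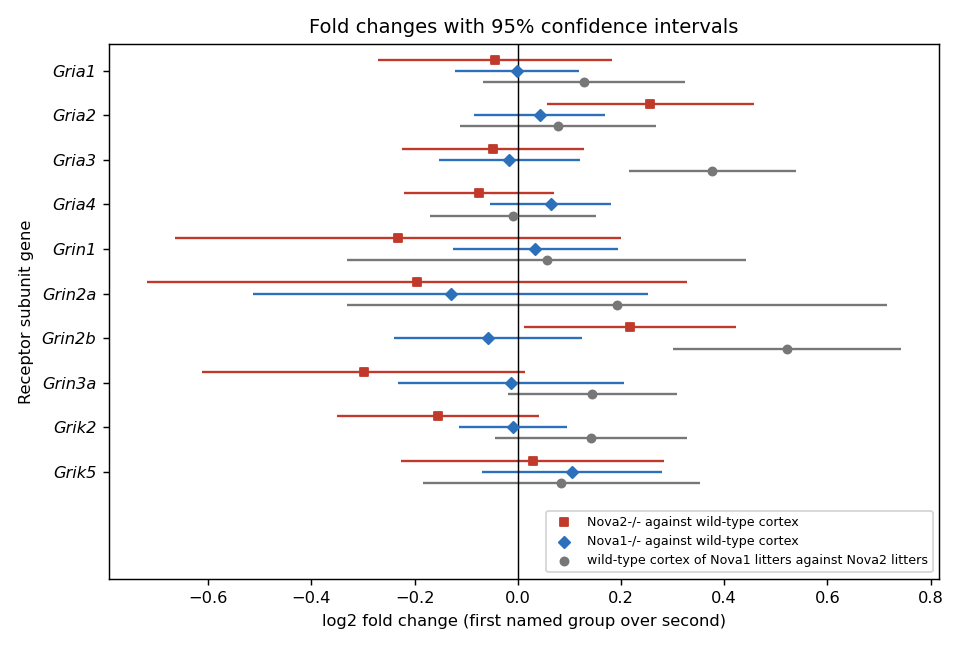
The x axis is the log2 fold change of each subunit, first named group over second, and lines are 95% confidence intervals. Red squares are Nova2-/- against wild-type, blue diamonds Nova1-/- against wild-type and grey circles the wild-type mice of the Nova1 litters against those of the Nova2 litters. Intervals exclude 0 for Gria2 (0.06 to 0.46) and Grin2b (0.01 to 0.42) in Nova2-/- cortex, and for Gria3 and Grin2b between the wild-type groups.

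The wild-type mice of both sets of litters were also compared, since they serve as separate controls. *Gria3*, an AMPA receptor subunit, was at 78.4, 77.0 and 85.1 CPM in the *Nova2* litters and at 106, 102 and 102 CPM in the *Nova1* litters. *Grin2b* was at 247, 271 and 305 CPM against 349.6, 408 and 415 CPM. These 2 subunits passed an FDR of 0.05 in edgeR's quasi-likelihood test and were higher in the *Nova1* litters, beside 3.03% of genes that passed in either direction. No subunit also reached a log2 fold change of 1, beside 0.647% of genes past both thresholds. Log2 fold changes were 0.38 (SE 0.0715, adjusted p = 0.0340) for *Gria3* and 0.52 (SE 0.0978, adjusted p = 0.0331) for *Grin2b*, larger than that of any subunit in either knockout.

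Groups did not overlap for *Gria3*, *Grin2b* and *Grin3a*, all higher in the *Nova1* litters, as in 13.6% of genes. Without wild-type replicate 3 of the *Nova2* litters 5 subunits passed an FDR of 0.05, all higher in the *Nova1* litters. The same omission raised the genes below an FDR of 0.05 from 483 to 3561 of all genes tested. Without any other single mouse 0 subunits passed. Litter set, the share of counts that were not whole numbers and meningeal marker level differed together between these groups and cannot be told apart.

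Ratios within a mouse, which do not depend on library size, were computed from CPM per kb after the levels had been seen and are given without a test. *Gria2* made up 66.8%, 68.0% and 59.7% of the summed level of the 4 *Gria* genes in wild-type mice from *Nova2* litters, against 69.6%, 70.6% and 68.9% in *Nova2-/-* mice. The groups did not overlap, as was so for the level of *Gria2*, the largest part of this sum, and the lowest value was again wild-type replicate 3. How often such shares lie apart among all genes was not computed. In the *Nova1* litters the shares were 63.7% to 64.3% in wild-type and 61.8% to 66.9% in *Nova1-/-* mice. *Gria4* made up 9.14% to 10.9% in wild-type mice from *Nova2* litters and 8.30% to 8.74% in *Nova2-/-* mice. The 4 shares are tied to each other, and the level of *Gria4* itself overlapped between these groups. *Grin2b* exceeded *Grin2a* 13.8-fold to 25.1-fold in the 12 mice, with 21.1, 17.9 and 13.8 in wild-type mice from *Nova2* litters and 24.2, 21.6 and 21.2 in *Nova2-/-* mice.

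**Figure D5:**
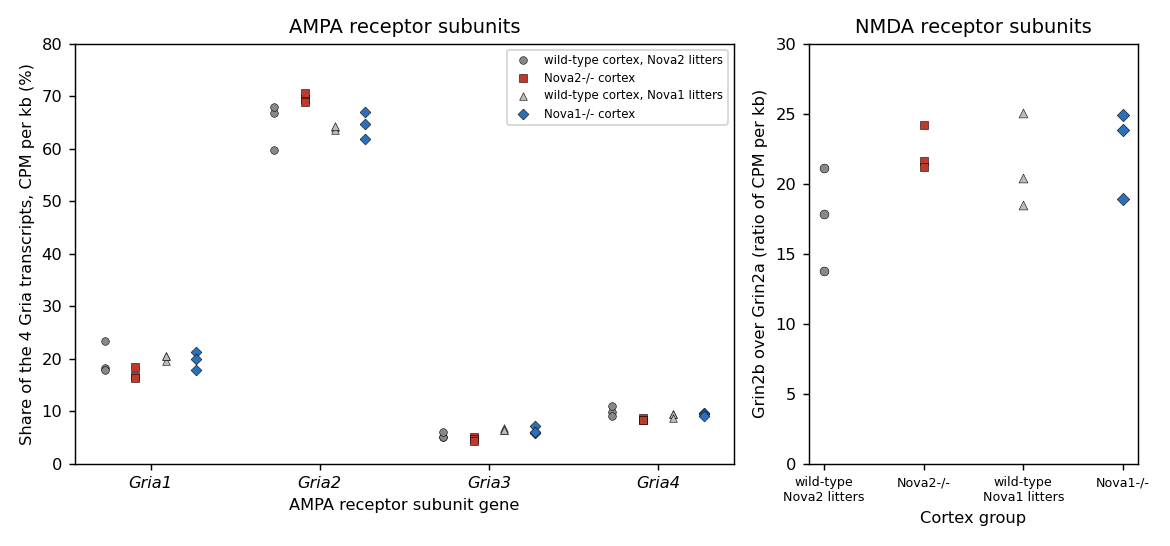
The left panel shows the share of each Gria gene in the summed CPM per kb of the 4 genes in percent, and the right panel the ratio of Grin2b to Grin2a in CPM per kb. Each symbol is 1 mouse of the 4 cortex groups. Gria2 lies at 59.7% to 70.6% in all mice, and the Grin2b to Grin2a ratio at 13.8 to 25.1.

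Genes related to the receptors were taken from lists of other ionotropic subunits (8 genes), auxiliary subunits (14), anchoring and trafficking partners (16, of which 15 were tested), metabotropic glutamate receptors (7) and the editing enzyme family (3). In *Nova2-/-* cortex 1 of these passed an FDR of 0.05 in edgeR's quasi-likelihood test. This was *Dlg3*, which encodes a scaffold protein that anchors NMDA receptors, at 117.6 ± 2.34 CPM (SD, n = 3) in wild-type and 75.3 ± 3.51 CPM (SD, n = 3) in *Nova2-/-* mice, a log2 fold change of -0.63 (SE 0.0675, edgeR adjusted p = 0.00977). *Dlg3* also had 9 splicing events, with ΔI in *Nova2-/-* cortex from -0.608 to 0.423 and in *Nova1-/-* cortex from -0.0743 to 0.0826. Another scaffold gene of the list, *Dlg1*, had a log2 fold change of 0.25 (SE 0.0678, edgeR adjusted p = 0.113).

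In the other lists 0 genes passed an FDR of 0.05 in *Nova2-/-* cortex, and the genes with the lowest p are given by value. Among auxiliary subunits, where 1 gene was higher and 4 lower at an unadjusted p below 0.05, beside 10.1% and 9.06% of all genes, *Neto2*, whose protein binds kainate receptors, had a log2 fold change of -0.39 (SE 0.0942) and *Cnih2*, whose protein binds AMPA receptors, -0.22 (SE 0.0744). The summed level of the 14 was 1057 to 1072 CPM in wild-type and 832 to 928 CPM in *Nova2-/-* mice. *Neto2* was the largest part of this sum, with a mean of 584 CPM in wild-type and 440 CPM in *Nova2-/-* mice. The sum therefore need not reflect the other genes of the list. The 1 gene that was higher was *Shisa7*, with a log2 fold change of 0.39 (SE 0.138). Among other ionotropic subunits *Grin3b* had 0.72 (SE 0.221) and *Grik3* 0.16 (SE 0.0640). The metabotropic receptor *Grm3* had -0.39 (SE 0.127). Of the genes of the editing enzyme family, *Adarb2* and *Adar* had 0.32 (SE 0.126) and 0.14 (SE 0.0653), and *Adarb1* had -0.02 (SE 0.0810). Median log2 fold changes of the 5 lists lay between -0.15 for auxiliary subunits and 0.19 for metabotropic receptors.

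In *Nova1-/-* cortex 0 genes of the 5 lists passed an FDR of 0.05 in edgeR's quasi-likelihood test and 1 reached an unadjusted p below 0.05. This was *Homer1*, a postsynaptic scaffold gene, with a log2 fold change of -0.12 (SE 0.0485). Of the other genes with the lowest p in their lists, *Grin2d* had 0.29, *Cacng3* 0.25, *Neto1* -0.15, *Homer2* -0.15, *Grm5* -0.10, *Adarb1* -0.13 and *Adarb2* -0.09.

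Splicing events were listed for 1 other ionotropic subunit, 1 auxiliary subunit, 5 anchoring and trafficking partners, 1 editing enzyme and 0 metabotropic receptors. The kainate receptor gene *Grik1* had 3 cassette events on 1 span (chr16:87896142-87914649), with ΔI in *Nova2-/-* cortex of 0.332, 0.348 and 0.505, which share that span. The auxiliary subunit gene *Shisa7* had 0.212, and the editing enzyme gene *Adarb1* had 0.193 at an alternative 5′ splice site. Among partners, *Grip1*, whose protein binds the tails of AMPA receptor subunits, had -0.348 and -0.344.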

How the data were processed

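RNA from E18.5 cortex was depleted of ribosomal RNA and sequenced as paired-end reads, which the authors aligned to mm10 with OLego. The authors deposited expected counts per gene symbol, not normalized, for 12 cortex samples. The counting program and annotation are not given in the sources used here. Related subunit genes share sequence, and how shared reads were split is not given either. FDRs in both tables, and log2 fold changes in the count table, hold the authors' own comparisons and were not used. The deposited ΔI is a score, 1 value per event and comparison, with coordinates in mm9. Midbrain and hindbrain were not analysed here for abundance.

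Expected counts were rounded and tested with edgeR 4.0.16 in R 4.3.3: TMM scaling, the default filter on low counts, the quasi-likelihood test in its legacy setting and Benjamini-Hochberg adjustment over all genes tested, with 6 mice per comparison and 12 for the difference between knockouts. The 3 mice per genotype are biological replicates. Wild-type mice were assigned to litters from the labels' numbering and the study's methods. CPM was scaled over 12 mice, so fold changes, fitted on 6, can differ slightly from ratios of printed CPM. Intervals are 95% confidence intervals of the fit. Exons and sequences were read from the NCBI mm9 genome with GENCODE M1. Starts in the event table count from 0 and 1 was added. Tables and figures used Python 3.11.15, pandas 2.3.3 and matplotlib 3.10.9.

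The genes and lists were chosen with earlier results of these data known. All 10 subunits and all their events are named, and from each list the genes with an FDR below 0.05 or, where fewer than 2 passed, the 2 with the lowest p, some of which are not reported here. The settings changed were the low-count filter (none, or 10 counts or more in each sample), the scaling (upper quartile), the tool (DESeq2 1.42.0, edgeR's exact test), the samples (all 12 together, each mouse left out), an FDR below 0.1, a replicate block and, chosen after seeing the data, edgeR without the legacy setting.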

Additional observations from a re-analysis of the deposited data

How the results depend on the processing

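No subunit passed an FDR of 0.05 in either knockout or in the difference between them without a filter, with at least 10 counts in every sample, with upper-quartile scaling, DESeq2, an FDR of 0.1, edgeR without the legacy setting or, for the knockouts, edgeR's exact test and all 12 samples in one fit. The lowest adjusted p of a subunit over these settings was 0.0691 in *Nova2-/-* cortex, with all 12 samples in one fit. No subunit passed both thresholds in any comparison under any setting. Leaving out 1 mouse, the number of subunits below an FDR of 0.05 in *Nova2-/-* cortex ranged from 0 to 2. In *Nova1-/-* cortex *Gria1* (-0.0012) turned to 0.00098 without a filter, 0.0021 with at least 10 counts in every sample and 0.0029 with upper-quartile scaling. Log2 fold changes that changed sign with a mouse left out ranged, in *Nova2-/-* cortex, from -0.12 to 0.0594 for *Gria1*, -0.0897 to 0.00252 for *Gria3*, -0.36 to 0.0362 for *Grin1*, -0.40 to 0.11 for *Grin2a* and -0.083 to 0.13 for *Grik5*. In *Nova1-/-* cortex they ranged from -0.0292 to 0.0478 for *Gria1*, -0.00653 to 0.10 for *Gria2*, -0.0702 to 0.0298 for *Gria3*, -0.039 to 0.0866 for *Grin1*, -0.36 to 0.0279 for *Grin2a*, -0.14 to 0.0136 for *Grin2b*, -0.16 to 0.0792 for *Grin3a* and -0.0344 to 0.0122 for *Grik2*. Between the wild-type groups they ranged from -0.00499 to 0.13 for *Gria2*, -0.0531 to 0.0327 for *Gria4*, -0.0757 to 0.33 for *Grin1*, -0.00747 to 0.51 for *Grin2a* and -0.0261 to 0.19 for *Grik5*. For the difference between the knockouts they ranged from -0.11 to 0.057 for *Gria1*, -0.0767 to 0.0205 for *Gria3*, -0.28 to 0.24 for *Grin2a* and -0.19 to 0.0245 for *Grik5*. The cause was not tested.

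Genes past both thresholds in *Nova2-/-* cortex numbered 41, and 67 without a filter, 126 with DESeq2, 170 with edgeR's exact test, 185 with all 12 samples in one fit, 117 at an FDR below 0.1 and 4 to 254 with 1 mouse left out. In *Nova1-/-* cortex they numbered 2, and 1 with at least 10 counts in every sample, 4 with DESeq2, 10 with edgeR's exact test and 1 to 7 with 1 mouse left out. At an FDR of 0.05 alone between the wild-type groups the count was 483, and 1333 with DESeq2 and 1156 with edgeR's exact test. *Gria3* and *Grin2b* passed between the wild-type groups under every setting that kept all mice. With a replicate block in the *Nova2* litters 0 subunits passed an FDR of 0.05, the lowest adjusted p was 0.117 and 55 genes passed both thresholds. Same-numbered wild-type and *Nova2-/-* mice had correlations of deviations of 0.0897, -0.0153 and 0.145, so they were treated as sharing only a number, and only replicate 3 of the wild-type mice correlated best with its own number. No paired analysis was possible because the groups share no replicate numbers in the *Nova1* litters. The median |ΔI| of the receptor events, 0.367, was 0.367 with the largest event of each span kept and 0.320 with the largest event of each gene kept. The median over all 1991 events was not recomputed in these ways. A limit of 0.2 removed no event, because the smallest |ΔI| was 0.266, so it could not change the median.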
